A study of Mus musculus with 6 samples.

Results

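The miR-23, miR-24 and miR-27 miRNAs are made from 2 gene clusters. In these mouse ESCs, the 4 miRNAs that come from the chromosome 8 cluster alone (miR-23a-3p, both strands of miR-27a and miR-24-2-5p) were 2.79-fold to 5.24-fold lower in ground-state than in serum cells. No tested miRNA that comes from the chromosome 13 cluster alone (miR-23b-3p, both strands of miR-27b and miR-24-1-5p) passed the same test. Also from chromosome 13, miR-23b-5p had too few counts to be tested. Such calls were common, with 114 of all 571 tested miRNAs called lower in the ground state and 97 called higher. Without serum RB18, miR-23a-3p was 2.28-fold and miR-24-2-5p 2.22-fold lower, and both were still called. The exact permutation test used to set the paralogs against each other within libraries cannot reach significance with this number of libraries. The members were chosen by their mature names and are 10 of the 1907 mature miRNAs listed in the deposited count table. They are mmu-miR-23a-3p, mmu-miR-27a-3p, mmu-miR-27a-5p and mmu-miR-24-2-5p from chromosome 8, mmu-miR-23b-3p, mmu-miR-23b-5p, mmu-miR-27b-3p, mmu-miR-27b-5p and mmu-miR-24-1-5p from chromosome 13, and mmu-miR-24-3p, which both clusters encode, and the species prefix (mmu) is left out from here on.

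Small RNA was sequenced from the mouse ESC lines RB18 and RB20, each maintained without feeders in serum, 2i or R2i medium, which gave 6 libraries, 2 per medium, each from a pool of independently grown cultures. Both lines were derived from C57BL/6 mice in R2i with LIF, so the serum and 2i cells descend from R2i cells, and all of them had been passaged at least 10 times after their transfer. All 3 media held 1000 U/ml of mouse LIF. Serum medium contained 15% fetal bovine serum and no inhibitor. The 2i and R2i media were serum free and held 1 µM of the MEK inhibitor PD0325901, to which 2i added CHIR99021 (3 µM), which inhibits GSK3, and R2i added SB431542 (10 µM), which inhibits the TGF-β receptor. The ground state stands here for 2i and R2i together. The total count per library ranged from 1041858 (R2i, RB18) to 3593356 (R2i, RB20).

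A miRNA gene is transcribed into a longer RNA, from which a hairpin is cut out and then trimmed to short mature strands, named 5p and 3p after the arm of the hairpin they come from. Usually 1 arm is loaded into the silencing complex and the other, the passenger, is mostly degraded. Target recognition rests mainly on the seed, bases 2 to 8 of the mature strand. miR-23, miR-24 and miR-27 are produced in many differentiated cell types, with miR-27 known for restraining fat cell formation, miR-24 for repressing cell-cycle genes and miR-23 for repressing glutaminase.

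On GRCm38 (mm10), the chromosome 8 cluster spans 84208518 to 84208921 on the plus strand, in the order Mir23a, Mir27a and Mir24-2, and the chromosome 13 cluster spans 63300484 to 63301275, also on the plus strand, in the order Mir23b, Mir27b and Mir24-1. In GENCODE M21, Mir23a and Mir27a overlap no other gene, and Mir24-2 overlaps an exon of the long non-coding RNA Gm26532. The chromosome 13 cluster lies inside the aminopeptidase gene 2010111I01Rik, on the same strand, and inside an intron of Fancc on the opposite strand. Mir23b is intronic to 2010111I01Rik, and Mir27b and Mir24-1 overlap exons of its non-coding or decay-targeted transcripts.

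**Figure D1:**
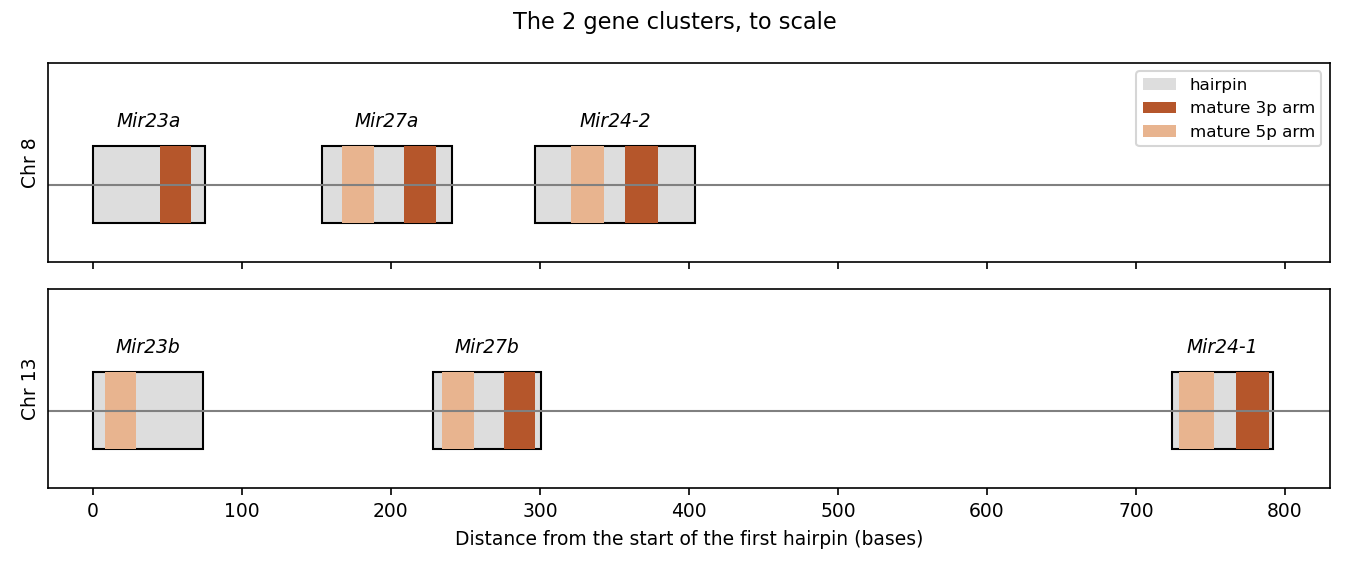
Map of the chromosome 8 cluster (top, 404 bases) and the chromosome 13 cluster (bottom, 792 bases), to scale from the start of the first hairpin in each, with hairpins in grey and the 3p (dark) and 5p (light) arms of the members that had a RefSeq mature sequence. The order of the genes is the same in both clusters, and Mir24-1 lies farther from its neighbours than Mir24-2 does.

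The mature sequences are shown because they set which members can be assigned to 1 cluster. They are from RefSeq (GRCm38.p6), which held 9 of the 10 members (not miR-23b-3p). Of these, 8 are shown, with the seed in capitals.
miR-23a-3p: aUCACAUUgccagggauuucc
miR-24-3p: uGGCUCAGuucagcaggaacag
miR-27a-3p: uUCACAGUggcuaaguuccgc
miR-27b-3p: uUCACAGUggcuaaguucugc
miR-27a-5p: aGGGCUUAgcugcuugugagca
miR-27b-5p: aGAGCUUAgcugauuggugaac
miR-24-2-5p: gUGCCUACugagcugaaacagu
miR-24-1-5p: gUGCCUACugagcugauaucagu
The miR-27 3p strands share their seed and differ at a single base, C19U, counted from the 5′ end of miR-27a-3p. Compared position by position, with no gap allowed, the miR-27 5p strands differ at 8 of 22 positions, among them every position from 17 to 22. The same miR-24-3p sequence is encoded at 84208875 to 84208896 on chromosome 8 and at 63301251 to 63301272 on chromosome 13, so its reads cannot be assigned to 1 gene. The miR-24 5p strands share their first 16 bases and then diverge. How reads that fit both genes, or that carry a mismatch, were assigned is not given in the sources used here, so misassigned reads between paralogs, in miR-27 and in miR-23, were not tested for.

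Levels are given as normalized CPM, the usual counts per 1e+06 counts, with library totals scaled by TMM (edgeR's trimmed mean of M-values), and the mature strands are all 21 to 23 bases long where the sequence was available. miR-27b-3p was the most abundant member by far. In serum it had 12764 normalized CPM in RB18 and 18133 in RB20, against 22035 and 24878 in 2i and 15156.5 and 23824 in R2i. It ranked at 16 among all listed miRNAs in serum, 10 in 2i and 14 in R2i. miR-24-3p came next at rank 61 over the 3 media, followed by miR-27a-3p (84), miR-23b-3p (92), miR-23a-3p (117) and miR-24-2-5p (164).

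The remaining members were passenger strands at low levels. miR-27b-5p ranked at 342 and miR-27a-5p at 355, and miR-24-1-5p, at 493, had between 5 and 40 counts in a library. miR-23b-5p had 3 counts in serum RB18 and 2 in serum RB20, against 1 and 5 (2i) and 3 and 3 (R2i). This is near 3 counts, the level set here as the smallest told apart from none, and it was the 1 member that did not pass the filter on low counts. The opposite arm of miR-23a, miR-23a-5p, is outside the members and had 3 counts in each serum library and 0 in the ground-state libraries. It did not pass the filter either, so a difference was not tested.

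**Figure D2:**
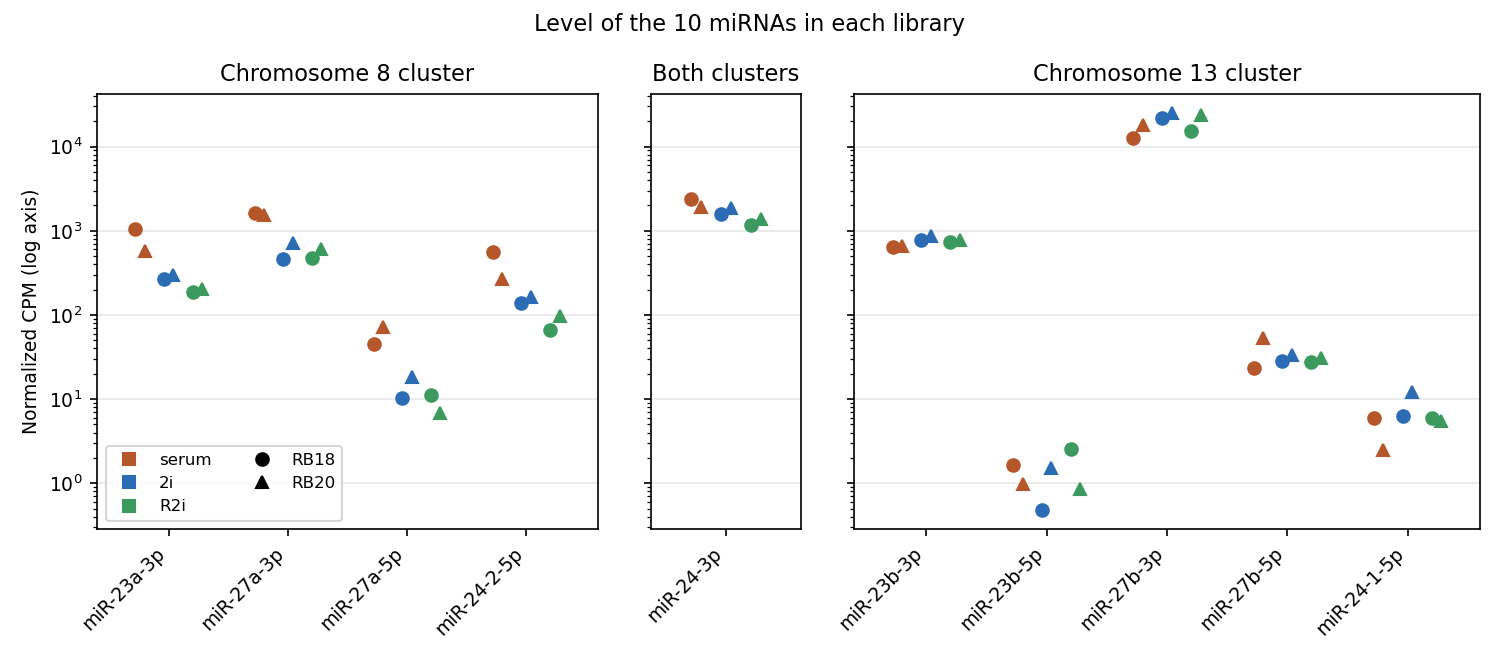
Normalized CPM of each member (log axis) in each library, grouped by the cluster that encodes it, with circles for RB18, triangles for RB20 and colours for the medium. The serum points of the 4 chromosome 8 miRNAs and of miR-24-3p lie above all of their 2i and R2i points. Those of miR-23b-3p, from chromosome 13, lie below all of its 2i and R2i points. For miR-27b-3p, miR-27b-5p, miR-24-1-5p and miR-23b-5p serum and the ground state overlap. How often serum and ground-state points separate in this way among all miRNAs was not counted.

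As a set, the 10 miRNAs took 2.00% of all counts in serum RB18 (95% Wilson interval 1.98 to 2.02) and 2.09% in serum RB20 (2.07 to 2.11). They took 2.53% and 2.81% in 2i, and 2.00% and 2.62% in R2i, for RB18 and RB20. By medium, the mean share was 2.67% ± 0.196 for 2i, 2.31% ± 0.440 for R2i and 2.05% ± 0.0614 for serum (SD, n = 2). The 2i libraries lay above both serum libraries, and the R2i libraries overlapped them. These intervals cover counting error only, since reads are not independent molecules. Most of each share was miR-27b-3p, and without it the other 9 members took 0.666% and 0.459% in serum, against 0.328% and 0.388% (2i) and 0.303% and 0.302% (R2i). Without miR-27b-3p, the serum libraries were thus the highest.

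Differential expression was tested with edgeR's quasi-likelihood test over the 571 miRNAs that passed the filter, 9 members among them, and a call required an adjusted p (Benjamini-Hochberg) below 0.01 and a change beyond 2-fold. No permutation of 2 libraries against 2 could pass such a threshold, so the p-values rest on the spread that edgeR shares between miRNAs. For the mean of 2i and R2i against serum, 4 of the 9 tested members were called lower in the ground state and 0 higher. Of all 571 miRNAs, 114 (20%) were called lower and 17.0% higher. The 4 were miR-23a-3p, miR-27a-3p, miR-27a-5p and miR-24-2-5p, which are all the tested members that come from chromosome 8 alone. The median log2 fold change was -0.54 over the 9 members and -0.02 over all 571. With the cell line as a block, by DESeq2, by limma on the deposited log2 values and without any 1 of the 6 libraries, the same 4 members were called. Leaving out serum RB18 moved the log2 change of miR-23a-3p from -1.79 to -1.19 and that of miR-24-2-5p from -1.89 to -1.15.

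miR-23a-3p, the 3p strand of the first hairpin on chromosome 8, had 1052 and 578 normalized CPM in serum RB18 and RB20, 271 and 295 in 2i, and 189 and 202 in R2i. Both serum libraries were above all 4 ground-state libraries, and the serum libraries differed from each other more than the ground-state libraries did. Its mean fell from 815 ± 335 in serum to 283 ± 17.4 in 2i and 195 ± 9.16 in R2i (SD, n = 2). With serum as the reference, edgeR gave a log2 fold change of -2.06 for R2i (standard error, SE, 0.32, adjusted p = 0.00132) and -1.53 for 2i (SE 0.32, adjusted p = 0.00507). Within the lines, the ground-state change was -2.22 in RB18 and -1.24 in RB20. With a block for cell line, the 2i change was -1.49 and no longer called (edgeR adjusted p = 0.0129), and the R2i change stayed called. Without serum RB18, the change was -1.46 in R2i and -0.92 in 2i.

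miR-27a-3p, which carries the same seed as the far more abundant miR-27b-3p, had 1614 and 1541 normalized CPM in serum, against 465 and 709.9 (2i) and 478 and 608 (R2i), in each case RB18 before RB20. The serum libraries were close to each other and above every ground-state library. Its log2 fold change was -1.54 for R2i (SE 0.29, edgeR adjusted p = 0.00323) and -1.42 for 2i (SE 0.29, edgeR adjusted p = 0.00418). For the ground state as a whole it was 2.79-fold lower than in serum, with a 95% interval of the log2 change from -2.02 to -0.94.

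The passenger strand of the same hairpin, miR-27a-5p, had 82 and 144 counts in serum, against 21 and 60 (2i) and 13 and 24 (R2i), or 44.9 and 71.4, 10.2 and 18.3, and 11.2 and 6.87 normalized CPM. Again the groups did not overlap. Of the 9 tested members, it was the furthest below serum in both media. Its log2 fold change was -2.78 for R2i (SE 0.43, edgeR adjusted p = 0.00126) and -2.0 for 2i (SE 0.39, edgeR adjusted p = 0.0038).

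miR-24-2-5p is the strand by which the chromosome 8 copy of miR-24 can be read. It had 566 and 268 normalized CPM in serum RB18 and RB20, 140.4 and 165 in 2i and 66.9 and 96.4 in R2i. All ground-state libraries were below both serum libraries, but serum RB20 was nearer to 2i than serum RB18 was. The log2 fold change in R2i was -2.34 (SE 0.40, edgeR adjusted p = 0.00202). In 2i it was -1.45 (SE 0.38) and did not pass the limit (edgeR adjusted p = 0.0158), although by DESeq2 it did (-1.44, adjusted p = 0.00123). The size depended on the serum libraries. Without serum RB18 the change was -0.70 in 2i and -1.60 in R2i, and without serum RB20 it was -1.94 and -2.83.

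On chromosome 13, miR-23b-3p had 650.0 and 664 normalized CPM in serum, against 780.4 and 870.2 (2i) and 742 and 781 (R2i). The ground-state libraries were all slightly above the serum libraries, and the difference did not pass the test. Its log2 fold change was 0.21 for R2i (edgeR adjusted p = 0.483) and 0.33 for 2i (edgeR adjusted p = 0.244). The 95% interval of the ground-state change, -0.18 to 0.72, excludes a change of 2-fold in either direction.

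For miR-27b-3p, whose CPM are given above, serum RB20 was above R2i RB18, and in both lines the 2i and R2i libraries were above the serum library of the same line. Its log2 fold change was 0.34 for R2i (SE 0.29, edgeR adjusted p = 0.405) and 0.60 for 2i (SE 0.30, edgeR adjusted p = 0.123). With a block for cell line, the 2i change was 0.63 (SE 0.20, edgeR adjusted p = 0.0462), which is still not a call. Its passenger, miR-27b-5p, had 23.5 and 53.5 normalized CPM in serum, against 28.2 and 33.6 (2i) and 27.4 and 30.6 (R2i). The serum libraries were here the lowest and the highest of the 6, and the ground-state log2 change was -0.36 (SE 0.33, edgeR adjusted p = 0.388).

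miR-24-1-5p, the strand by which the chromosome 13 copy of miR-24 can be read, had 11 and 5 counts in serum, against 13 and 40 (2i) and 7 and 19 (R2i). Its ground-state log2 change was 0.79, with a 95% interval from -0.44 to 2.02 (edgeR adjusted p = 0.243), and it was not called. At this depth the interval is wide. It includes 0 and a level more than 2-fold above serum, and its lower end stops short of 2-fold below. miR-24-3p, to which both clusters contribute, had 2401 and 1920.5 normalized CPM in serum, against 1578 and 1878 (2i) and 1181 and 1378 (R2i). Its groups did not overlap, but serum RB20 and 2i RB20 were nearly level. Its log2 fold change was -0.76 for R2i (SE 0.24, edgeR adjusted p = 0.0385) and -0.32 for 2i (SE 0.24, edgeR adjusted p = 0.297), and neither was a call.

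**Figure D3:**
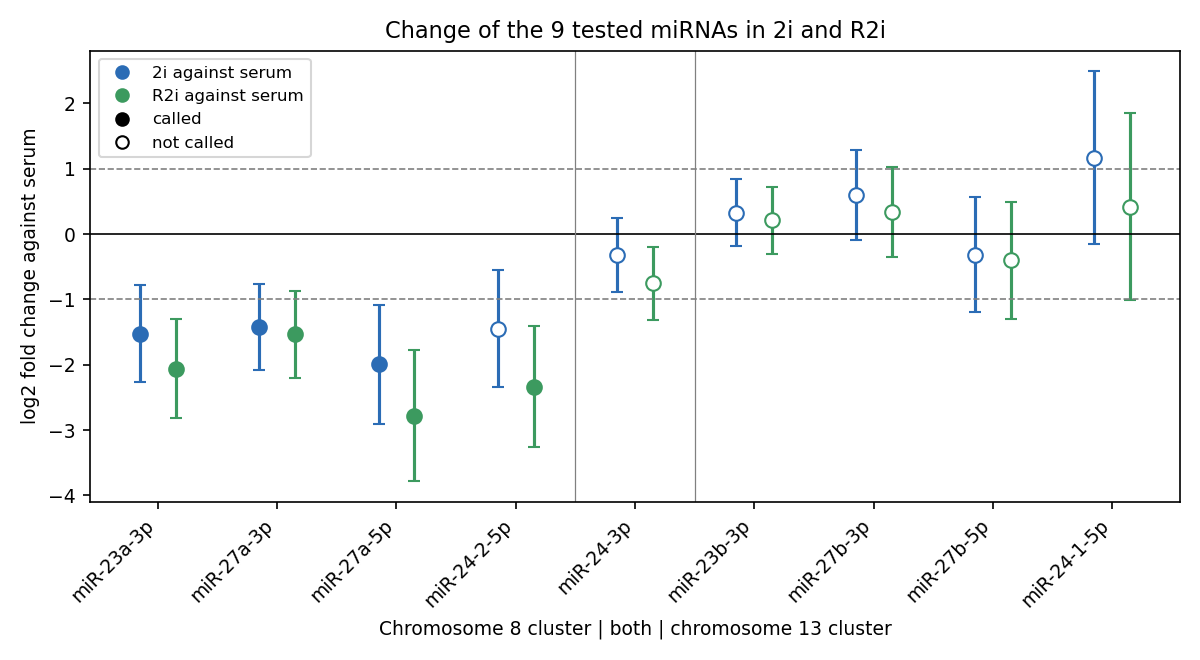
Log2 fold change of the 9 tested members against serum in 2i and R2i, with 95% intervals from edgeR's quasi-likelihood fit (n = 2 libraries per medium), where filled points were called and dashed lines mark 2-fold. Among the chromosome 8 miRNAs all points lie below -1 and only miR-24-2-5p in 2i was not called, whereas every interval of the chromosome 13 miRNAs includes 0.

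Taken singly, 2i against serum gave 3 calls among the 9 members, all lower (of all miRNAs, 17.3% were lower and 16.8% higher), namely miR-23a-3p, miR-27a-3p and miR-27a-5p. R2i against serum gave 4, all lower (of all miRNAs, 15.6% were lower and 15.1% higher), the same members as for the ground state. The 2 contrasts share their serum libraries. In 2i the number fell to 1 (miR-27a-5p) without serum RB18 or without 2i RB20, and to 0 without 2i RB18. It was 2 without either R2i library, and without serum RB20 it was again 3, with miR-24-2-5p in place of miR-27a-5p. In R2i it fell to 1 without R2i RB18 (miR-27a-5p) or R2i RB20 (miR-24-2-5p) and to 3 without serum RB18, when miR-27a-3p was not called.

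Between 2i and R2i, which differ in whether GSK3 or the TGF-β receptor is inhibited beside MEK, 0 of the 9 members were called by edgeR, DESeq2 or limma, and 0 had an unadjusted p under 0.05 in the edgeR fit described. miR-24-2-5p was nearest (unadjusted p = 0.0517), and other fits put it below that limit, such as DESeq2 (unadjusted p = 0.0416) and edgeR with no filter (0.00416), with only the 2i and R2i libraries (0.015), without serum RB18 (0.00872) or without serum RB20 (0.00796). Some fits also put miR-23a-3p, miR-24-3p or miR-27a-5p below it, and no fit gave a call of a member. Of the 571 miRNAs, 0.350% were called in this contrast and 18.2% had an unadjusted p under 0.05. The log2 differences of the members, 2i minus R2i, were all positive, from 0.08 for miR-27b-5p to 0.89 for miR-24-2-5p (95% interval -0.01 to 1.79). Their median was 0.43, against 0.01 over all 571 miRNAs. Within RB18 alone, the difference was -0.04 for miR-27a-3p and -0.12 for miR-27a-5p. The intervals leave room for differences of more than 2-fold for miR-23a-3p, miR-27a-5p, miR-24-2-5p and miR-24-1-5p, with upper bounds of 1.27, 1.82, 1.79 and 2.01.

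The balance between the clusters can be read within a library, where no scaling is needed. Of the miR-27 3p counts, miR-27a-3p made up 11.2% in serum RB18 (95% Wilson interval 10.9 to 11.6) and 7.83% in serum RB20 (7.57 to 8.10). In the ground state its part was 2.07% and 2.77% in 2i and 3.06% and 2.49% in R2i. Put as a ratio, miR-27b-3p exceeded miR-27a-3p by 7.91-fold and 11.8-fold in serum, 47.4-fold and 35.0-fold in 2i and 31.7-fold and 39.1-fold in R2i.

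For miR-23, miR-23a-3p made up 61.8% (60.1 to 63.5) and 46.5% (44.6 to 48.5) of the miR-23 3p counts in serum, against 25.8% and 25.3% (2i) and 20.3% and 20.5% (R2i). In the 4 ground-state libraries and in serum RB20 miR-23b-3p was the major strand, and in serum RB18 it was miR-23a-3p.

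Summed over both paralogs, the miR-27 3p strands reached 24044 ± 2184 normalized CPM in 2i, 20033 ± 6221 in R2i and 17026 ± 3745 in serum (SD, n = 2). The sum thus moved with miR-27b-3p. The miR-23 3p strands summed to 1472 ± 325 in serum, 1108 ± 80.9 in 2i and 957 ± 36.5 in R2i, so the sum was highest in serum, by less than miR-23a-3p alone.

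The low strands gave the same direction. miR-27a-5p made up 65.6% and 57.1% of the miR-27 5p counts in serum, against 26.6% and 35.3% (2i) and 28.9% and 18.3% (R2i). miR-24-2-5p made up 98.9% and 99.1% of the miR-24 5p counts in serum, against 95.7% and 93.1% (2i) and 91.8% and 94.7% (R2i), so nearly all assigned 5p counts of miR-24 were from the chromosome 8 hairpin in every medium. The share of the 5p strand speaks of what was kept after processing and is not a measure of how much miR-24-3p each gene made.

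**Figure D4:**
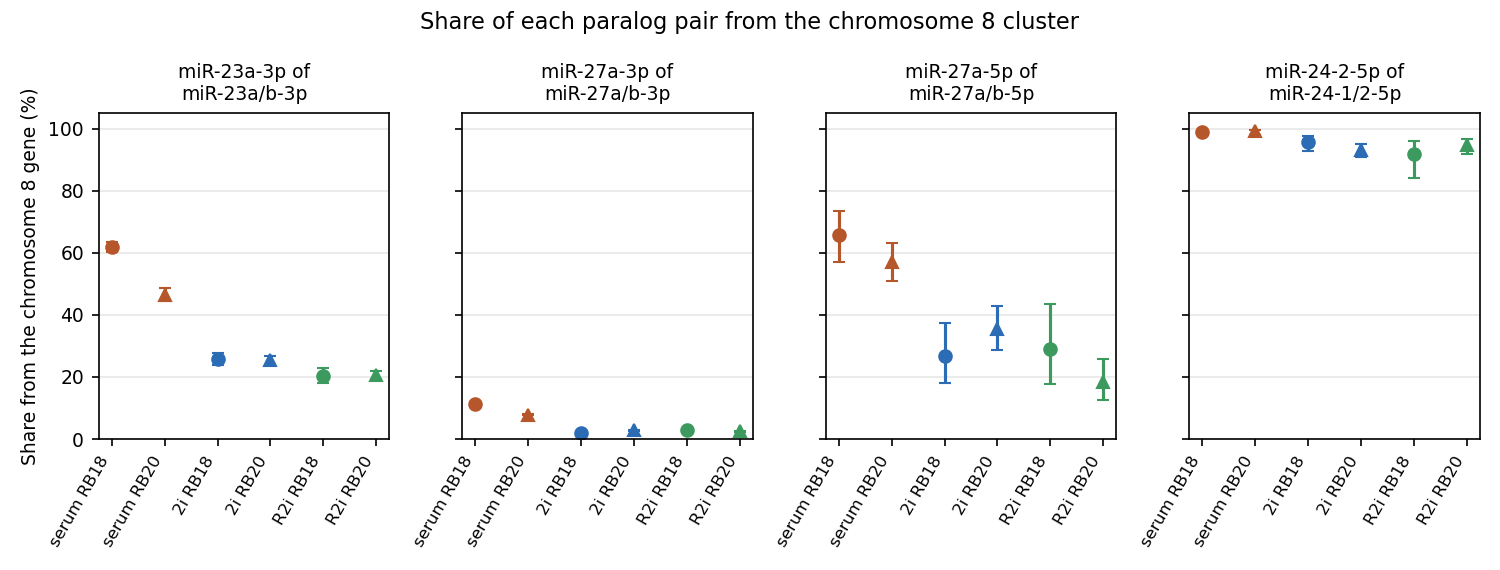
Share of each paralog pair that came from the chromosome 8 gene, in percent, in each library, with 95% Wilson intervals (counting error only), circles for RB18 and triangles for RB20. In all 4 pairs, both serum libraries lie above every 2i and R2i library (for miR-23 3p, 61.8% and 46.5% against 20.3% to 25.8%). The pairs come from the same clusters and the same libraries, so they are not independent of each other.

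The log2 ratio of miR-27b-3p to miR-27a-3p was 1.97 higher on average in the 4 ground-state than in the 2 serum libraries, and that of miR-23b-3p to miR-23a-3p was 2.00 higher. Each ratio was higher in both media in both lines, by 2.58 and 2.00 (2i and R2i, RB18) and 1.57 and 1.73 (RB20) for miR-27, and by 2.22 and 2.67 (RB18) and 1.36 and 1.75 (RB20) for miR-23. An exact two-sided permutation test over the 15 arrangements of 4 against 2 libraries gave p = 0.133 for each, and 0.167 after Benjamini-Hochberg adjustment over the 5 ratios tested. With the serum label permuted within each line, as the pairing by line asks, the 9 arrangements gave an exact p of 0.222 (adjusted 0.278). Both are the smallest values that the arrangements allow, so these tests could not pass a threshold whatever the ratios.

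Strands from the same hairpin or transcript were far from equal. Of the counts of the miR-27a hairpin, the 5p strand took 2.71% and 4.43% in serum, against 2.15% and 2.52% (2i) and 2.28% and 1.12% (R2i). Of the miR-27b hairpin it took 0.184% and 0.294% in serum and between 0.128% and 0.181% in the ground-state libraries. The 3p to 5p log2 ratio was higher in the ground state by 0.84 for miR-27a and by 0.72 for miR-27b, with no overlap between the groups (exact permutation p = 0.133 for each, adjusted 0.167, or 0.222 and 0.278 within lines). Without serum RB20 these differences shrank to 0.48 and 0.39, and without serum RB18 they were 1.21 and 1.06. For miR-27b the RB18 difference between R2i and serum was only 0.02. For miR-23b, with 1 to 5 counts of the 5p strand, the ratio did not separate the media (0.42, exact permutation p = 0.667, adjusted 0.667).

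For miR-24, the 5p strands of both genes together took 19.2% and 12.3% of the miR-24 counts in serum, against 8.51% and 8.62% (2i) and 5.81% and 6.88% (R2i). The share was highest in serum in both lines. miR-24-2-5p made up 91.8% to 99.1% of these 5p counts, so the share is not independent of the level of that strand. Between members of 1 cluster, miR-27b-3p exceeded miR-23b-3p by 19.6-fold to 30.5-fold over the 6 libraries. miR-27a-3p exceeded miR-23a-3p by 1.53-fold to 3.02-fold. In both cases the serum and ground-state libraries overlapped. Within the lines, the log2 ratio of miR-27b-3p to miR-23b-3p was above that of the serum library in each of 4 comparisons, by 0.52 and 0.06 in RB18 (2i, then R2i) and by 0.07 and 0.16 in RB20. That of miR-27a-3p to miR-23a-3p was higher by 0.16 and 0.72 in RB18, and differed by -0.15 and 0.18 in RB20. These differences within a cluster were not tested.

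Other miRNAs with a related seed were sought among the 1623 listed miRNAs with a RefSeq sequence, as those with the same bases 2 to 8 as miR-23a-3p, miR-24-3p or miR-27a-3p, or with bases 2 to 7 of these shifted by 1 position. Of the 7 found, 1 passed the filter, miR-128-3p, a strand best known from neurons, in which bases 2 to 7 of miR-27, the stretch searched for, are in capitals.
miR-128-3p: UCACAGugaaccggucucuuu
It had 325 and 361 normalized CPM in serum, against 398 and 344 (2i) and 364 and 426 (R2i), with overlap between serum and 2i. Its ground-state log2 change was 0.16 (SE 0.20, edgeR adjusted p = 0.554), and it was not called in 2i or R2i either. The other 6 had at most 1 count in any library.

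The tested miRNAs with the most similar profiles were found by the root mean square difference of log2 CPM, centred per miRNA, over the 6 libraries. For the summed miR-27 3p strands these were miR-148b-5p (0.0724), miR-186-5p (0.118) and miR-93-5p (0.12), for miR-24-3p they were miR-188-5p (0.118), miR-345-5p (0.13) and miR-486a-5p (0.133), and for the summed miR-23 3p strands miR-295-5p (0.135), miR-7a-1-3p (0.136) and miR-345-5p (0.14). The median over all tested miRNAs lay between 0.668 and 0.704. miR-148b-5p, the closest of all, had 241 and 333 normalized CPM in serum, against 398 and 389 (2i) and 272 and 394 (R2i), and was lowest in the serum and R2i libraries of RB18, as miR-27b-3p was.

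The cell type in the labels was checked with miRNAs known for it. The 13 ESC miRNAs, from the miR-290 and miR-302 families, summed to between 351884 and 409368 normalized CPM in every library, and none was at 0. Lists for other cell types were compared by their sums only, which a single abundant strand can set, and these sums were not tested. The muscle list of 3 (46.6 to 79.4 in serum, 0.305 to 7.72 in the ground state) was higher in serum. Of its strands, 2 were at 0 in both 2i libraries, and 1 in both R2i libraries and in serum RB18. The neural list of 3 was also higher in serum (557 to 765 against 434 to 526). The mesenchymal list of 5 was lower in serum (1431 to 2047 against 2415 to 3653). The endothelial list of 2, the blood list of 5 (miR-223-3p at 0 throughout) and the liver or endoderm list of 3 overlapped between serum and the ground state. The part of other cell types in the lower ground-state levels of the chromosome 8 miRNAs was not tested. In such bulk libraries, fewer cells of a type and less RNA per cell cannot be told apart. Opposite both Mir24 genes lie the Mir3074 genes, whose listed strands had 78 counts in all 6 libraries together, against 23850 for miR-24-3p, and whether strand was used in counting is not given in the sources used here.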

How the data were processed

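The authors trimmed adaptors, kept reads of miRNA-like length, mapped them to the mouse genome and deposited whole-number counts per mature miRNA, without normalization. The submitters' processing notes name FastQC 0.11.5, cutadapt 1.3, Bowtie 1.1.2, featureCounts 1.5 and mm10. The deposited log2 values, for 1233 miRNAs, equal log2(count / size factor + 1) within 0.005. Total counts were 1041858 to 3593356 per library.

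edgeR 4.0.16 (R 4.3.3) was run on all 6 libraries with TMM, filterByExpr (minimum count 10, minimum total 15) and 1 coefficient per medium, and was first tested on simulated data. The SE of a log2 change was taken from its F statistic (change / square root of F). Alternatives were DESeq2 1.42.0, limma 3.58.1 on the deposited log2 values, library totals, other filters, fewer libraries, another call limit and the cell line as a block. The lines pair the libraries by their names in the labels. The differences between lines correlated at 0.212 (serum with 2i), 0.222 (2i with R2i) and -0.13 (serum with R2i). Ratios used a pseudocount of 0.5 counts. The edgeR p-values rest on the spread between 2 lines within a medium, each library a pool, and this spread is shared between miRNAs. RB18 was the smaller library in every medium, so line and depth cannot be told apart. Members and lists were chosen with earlier results of these data known. Named are all members, tested miRNAs with a related seed, the 3 nearest profiles per family and the marker lists. 0 columns of values were left unused. Python 3.11.15 was used with scipy 1.17.1 for intervals, pandas 2.3.3 and numpy 2.4.6 for tables, and matplotlib 3.10.9 for plots.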

Additional observations from a re-analysis of the deposited data

Results flagged for a closer look

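For 4 members, the change between media had opposite signs in RB18 and RB20. With 1 library per line and medium, these differences were not tested, and how many other miRNAs had such opposite signs was not counted. miR-27b-5p moved by 0.25 on the log2 scale in RB18 and by -0.66 in RB20 for 2i against serum (RB20 minus RB18, -0.92), and by 0.22 and -0.80 for R2i against serum (-1.01). Its serum RB20 library had 108 counts and serum RB18 43. miR-24-1-5p, with 5 counts in serum RB20, moved by -0.004 in RB18 and by 0.99 in RB20 for R2i against serum (1.00). Between 2i and R2i, miR-27a-5p moved by -0.12 in RB18 and by 1.35 in RB20 (1.48), with 13 counts in R2i RB18, and miR-27a-3p by -0.04 and 0.22 (0.26). None of these contrasts was a call for the strand named.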

How the results depend on the processing

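Over the alternatives planned, 423 of the log2 changes of single members kept their direction and side of the limits, 20 lost a call, 3 gained one and 8 changed sign, each of these 8 on leaving out 1 library. The number of members called in the ground state was 4 in every alternative run; fitting only the libraries of the contrast leaves the ground-state fit as it is and was not run for it. The number called in 2i was 1 when only the serum and 2i libraries were fitted and 0 to 3 on leaving out 1 library, and in R2i 1 to 4. On leaving out 1 library, miR-27b-5p ranged from -0.68 to 0.34 (2i against serum), -0.77 to 0.26 (R2i against serum), -0.72 to 0.30 (ground state) and -0.043 to 0.22 (2i against R2i), miR-24-1-5p from -0.15 to 1.27 and miR-27b-3p from -0.028 to 0.64 (both R2i against serum), and miR-27a-3p from -0.22 to 0.40 (2i against R2i). With the 5 most abundant miRNAs left out of the total, the members' share was 4.36% (R2i), 5.29% (2i) and 3.76% (serum), by construction of a smaller total. With a block for cell line, the number called was 2 (2i), 4 (R2i) and 4 (ground state), and the block changed no call other than that of miR-23a-3p in 2i. The median log2 change of all miRNAs in R2i was -0.07 with TMM and 0.03 with library totals, and no member's call changed with library totals. Depth limits miR-23b-5p and miR-24-1-5p, and the fits that leave out a library assume that the lone library of a medium varies as the others do. The permutation of ratios within lines was added after seeing the data.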
